A study of Mus musculus with 14 samples.

Results

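The 35 DNA damage response and repair genes followed here are the kinases, break sensors, scaffold proteins, ligases and excision enzymes that detect and mend lesions in DNA. They were chosen by name, and every non-control probe of the array design that carries one of these names was taken. That gave 44 probes for the 35 genes, out of 55681 probes under 34821 gene names. Of the genes, 26 had 1 probe and 9 had 2 probes. Gene expression was measured on one-colour arrays in peritoneal B-1a cells, innate-like B lymphocytes of the body cavity, in 7 samples from Bmi1 KO mice and 7 from wild-type (WT) mice, over 2 sets of experiments. Set 1 held 3 Bmi1 KO and 3 WT samples, and set 2 held 4 of each. The Bmi1 KO samples are labelled as lacking Bmi1, a subunit of Polycomb repressive complex 1. The sources used here name neither the deleted part of the gene nor the promoter of any Cre, and neither the strain, age and sex of the mice nor whether a sample pooled several. P-values thus rest on the spread among these samples, part of which may be technical.

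DNA damage is met in layers. The kinases Atm and Atr, with Prkdc at double-strand breaks, sense the lesion and phosphorylate histone H2AX. The ubiquitin ligases Rnf8 and Rnf168 then mark the surrounding chromatin, and repair proceeds by homologous recombination, end joining or one of the excision pathways. In B lymphocytes the same enzymes also process programmed lesions. The uracil glycosylase Ung acts on uracils that arise in antibody genes, and the end-joining proteins seal the breaks of V(D)J and class-switch recombination. Bmi1 protein is itself known to gather at double-strand breaks, where it takes part in ubiquitylation of histone H2A.

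Of the 44 probes, 42 matched a RefSeq accession in a table of GRCm38.p6 gene names, and H2afx is called H2ax there. The following sequences, lettered as in the array design, show what the probes with the main findings detect. Xrcc1 and Xpa had the only member probes with an unadjusted p under 0.05, and Atm and Prkdc were each printed on 10 spots. Positions refer to mouse build mm9. The Xrcc1 probe lies at chr7:25358268-25358327 on the plus strand. The first Xpa probe lies at chr4:46188146-46188205 and the other at chr4:46197239-46197298, both on the minus strand. The Atm probe lies at chr9:53256167-53256226 on the minus strand. The Prkdc probe spans chr16:15839317-15841922 on the plus strand, which is longer than its 60 bases. Each sequence has at least 1 reading frame free of stop codons. No exon annotation of mm9 was used here.
Xrcc1: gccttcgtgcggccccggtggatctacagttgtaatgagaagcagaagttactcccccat
Xpa, first probe: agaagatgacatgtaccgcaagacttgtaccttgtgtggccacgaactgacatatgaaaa
Xpa, other probe: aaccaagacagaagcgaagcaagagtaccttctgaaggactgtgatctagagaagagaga
Atm: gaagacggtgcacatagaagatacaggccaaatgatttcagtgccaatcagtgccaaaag
Prkdc: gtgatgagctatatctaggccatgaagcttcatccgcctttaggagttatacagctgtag

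Levels below are log2 of the spot intensity minus the 75th percentile of that array, so 0 is the level that 75% of its non-control spots do not exceed. A level is compared only with the same probe on other arrays. The arrays differed in how much they detected. Between 20.6% and 56.6% of all probes were well above background on the Bmi1 KO arrays, against 43.7% to 63.1% on the WT arrays. The means were 40.6% ± 14.4 and 52.3% ± 7.12 (SD, n = 7 each), with a two-sided p of 0.0457 by exact permutation of genotype within sets. Under 40% of probes were above background on 4 Bmi1 KO arrays, which were replicate 4 of set 1 and replicates 1, 2 and 3 of set 2, and on 0 WT arrays. On the dim arrays of set 2 the 75th percentile itself is lower, at 3.63 to 5.29 log2, so a spot at background has a higher level. On the dim array of set 1 it was 7.0, close to the lowest WT array at 7.09. The lowest level among probes well above background reached 0.55 on a Bmi1 KO array, against at most -2.51 on a WT array. The median difference of all 29679 probes tested was 0.32, and differences are also given relative to it.

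The 2 Bmi1 probes were not lower on the Bmi1 KO arrays. One had levels from -1.57 to 3.78 on Bmi1 KO arrays, against -3.12 to 2.09 on WT arrays (adjusted p = 0.547 by limma), and the other had -3.15 to 2.62 on Bmi1 KO arrays, against -5.32 to -2.19 on WT arrays (adjusted p = 0.176). Without knowing the deleted part, a probe outside it checks nothing, so genotype is used here as labelled. Of 12 B cell and B-1a cell markers on the array, 9 to 12 were above background on Bmi1 KO arrays and 11 to 12 on WT arrays. Their summed level ran from 9.33 to 14.04 and from 9.31 to 10.67. Macrophage markers were above background for 4 to 9 of 11 on Bmi1 KO arrays and 6 to 10 of 11 on WT arrays, and T cell markers for 5 to 9 and 7 to 9 of 10. Summed levels were 3.38 to 10.02 against 3.74 to 7.54 for macrophages, and 6.42 to 9.94 against 5.94 to 7.43 for T cells. For NK, mast cell, granulocyte and red cell markers at most 6 genes were above background on any array, and of their defining markers Eomes, S100a8, Ltf, Epx and Prg2 were above it on 0 arrays. Of 25 proliferation genes, 6 to 22 were above background on Bmi1 KO arrays and 15 to 21 on WT arrays. The summed level of the proliferation genes ran from 4.87 to 11.1 on Bmi1 KO arrays and from 4.08 to 5.98 on WT arrays. The part of these cells and of array brightness in the differences below was not tested beyond the settings given. In a bulk sample, fewer cells of a type and less RNA per cell cannot be told apart.

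The damage and repair probes were detected on fewer Bmi1 KO arrays than WT arrays. Of the 44 probes, 13 to 38 were above background on a Bmi1 KO array with a median of 28, against 31 to 42 on a WT array with a median of 38. The dim Bmi1 KO arrays had 28, 21, 13 and 18 of them, and the other 3 Bmi1 KO arrays had 30, 38 and 34. Thus the 3 brighter Bmi1 KO arrays lay within or 1 probe below the range of the WT arrays of both sets pooled. In set 1 the brighter Bmi1 KO arrays, at 30 and 38, lay below every WT array, at 39, 41 and 42. They had 56.6% and 56.1% of all probes above background, against 43.7% to 63.1% on those WT arrays. In set 2 the brighter Bmi1 KO array, at 34, lay within the WT counts of 31 to 38. On all 7 arrays of a genotype, 6 probes were above background in Bmi1 KO, with its 4 dim arrays, and 25 in WT, with no dim array. No share over all probes is given for these counts, so they show nothing particular to the members. Counted without any filter, 36 of the 44 (81.8%) were above background on more WT than Bmi1 KO arrays, against 59.2% of the 46330 probes of the array that were above it anywhere. The 5 that were above background on all 14 arrays were those of Lig1, Parp1 and Ung and both of Xpa. They made up 12.8% of the 39 member probes tested below, against 23.8% of the other 29640 probes tested.

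**Figure D1:**
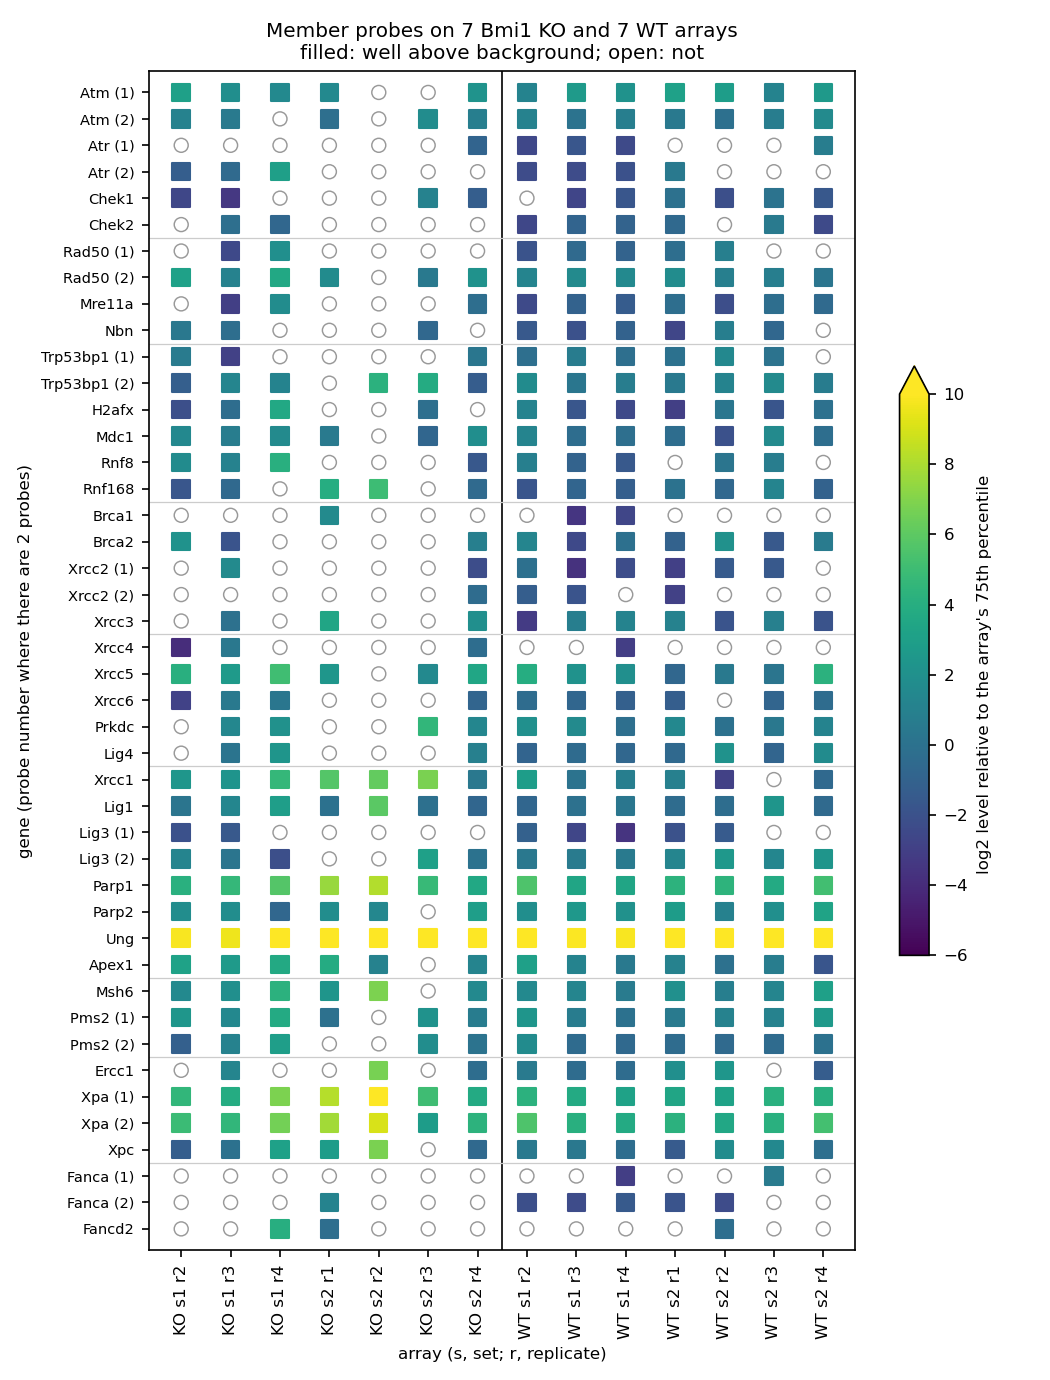
Level of each of the 44 damage and repair probes (rows, grouped by role) on 7 Bmi1 KO and 7 WT arrays (columns). Squares are well above background and coloured by log2 level relative to the 75th percentile of the array, and open circles are not above background. Colours compare arrays along a row. The columns with 13 and 18 squares are Bmi1 KO set 2 replicates 2 and 3.

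**Figure D2:**
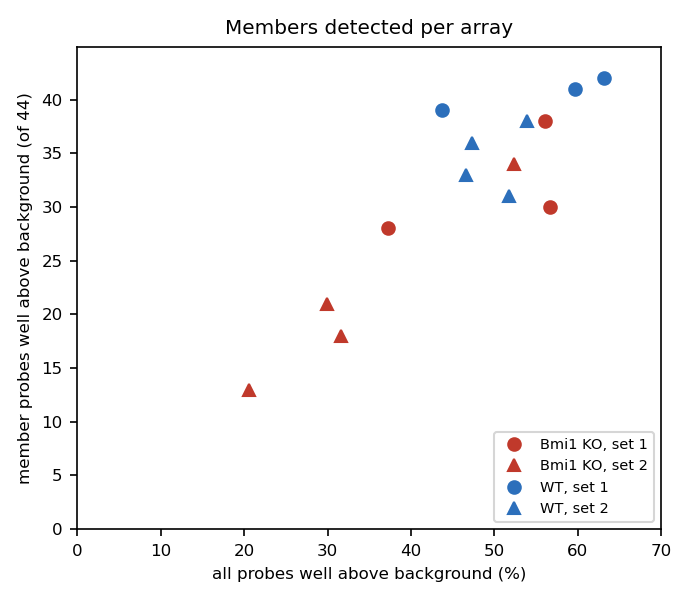
Number of the 44 damage and repair probes well above background on each array against the percent of all probes well above background. Each point is 1 array. The 4 Bmi1 KO arrays with under 40% of all probes above background have 13 to 28 members above it, below the lowest WT array with 31.

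No member probe passed the test for genotype. The test was limma on all 14 arrays with the set as covariate, adjusted by the Benjamini-Hochberg method over 29679 probes, and 39 probes of 32 members were in it. At an adjusted p under 0.05 it called 9 probes (0.0303%), and 0 of the 39. Of these 1 was higher (0.00337%) and 8 were lower (0.027%) in Bmi1 KO. When the arrays were scaled by the probes detected on each of the 14, it called 1 higher and 133 lower, again with 0 members, and the median of all probes was -1.04. The smallest adjusted p of a member was 0.21. At an unadjusted p under 0.05, 2 members were higher and 0 lower, while of all probes 8.18% were higher and 5.38% lower. Differences of the tested members ran from -2.12 to 4.06 relative to all probes, with a median of -0.57. A probe entered the test if it was above background on at least 4 arrays of either genotype, and this choice bears on that median. Of the 39 probes, 14 (35.9%) entered through WT arrays only and 0 through Bmi1 KO arrays only, against 27% and 2.45% of all probes tested. Of those 14, 13 lay below the median of all probes, where the filter favours them. The other 25 split into 14 above and 11 below, with a relative median of 0.17. Over all probes, 6552 of the 8001 that entered through WT arrays only lay below it. Those that entered through both genotypes split into 12664 above and 8285 below, with a relative median of 0.27. The balance of the tested members is therefore no measure of the list. Without the 4 dim Bmi1 KO arrays the relative median of the 39 was 0.05 and again 0 members passed. The median standard error was 0.95 for members and 0.82 over all probes.

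**Figure D3:**
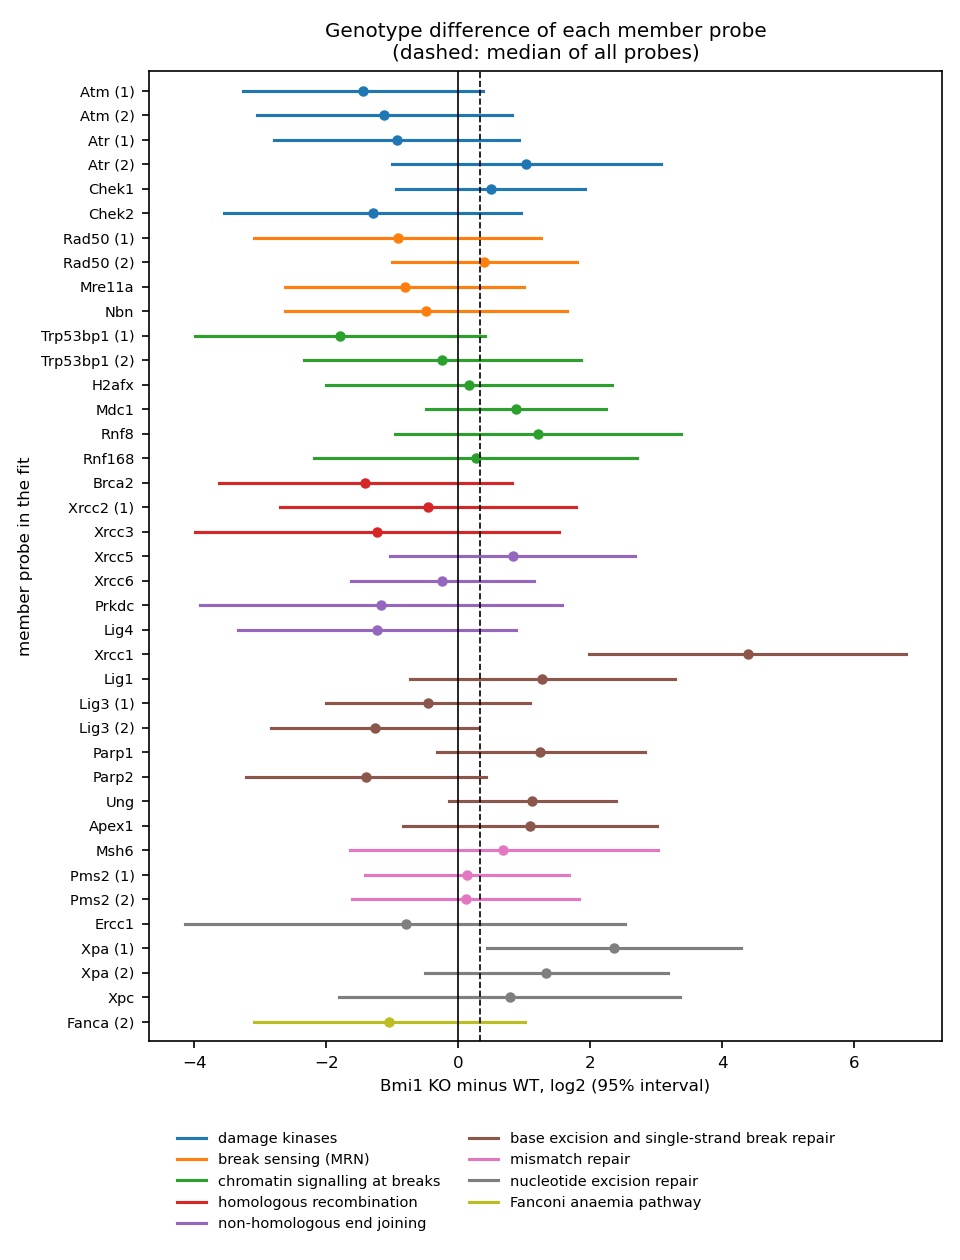
Difference between Bmi1 KO and WT of each of the 39 member probes tested, on the log2 scale, with its 95% interval, coloured by role. The solid line marks 0 and the dashed line the median of all probes, 0.32. The intervals of Xrcc1 (1.98 to 6.78) and of the first Xpa probe (0.43 to 4.28) lie above 0, and 37 others include it.

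Among the damage kinases, 6 probes were tested and 0 passed. Atm, the kinase that answers double-strand breaks, had levels from -3.23 to 3.06 with a median of 1.56 on Bmi1 KO arrays, against 1.14 to 3.09 with a median of 2.60 on WT arrays. The genotypes overlapped, and the 2 Bmi1 KO arrays below every WT array were set 2 replicates 2 and 3, where the probe was not above background. The difference was -1.45 (SE 0.86, 95% interval -3.27 to 0.37, adjusted p = 0.417 by limma). The other Atm probe differed by -1.12 (SE 0.91). Without the 4 dim Bmi1 KO arrays these differences were 0.20 and 0.15. For Atr, which answers stalled replication forks, the 2 probes differed by -0.93 and 1.03, with intervals of -2.79 to 0.92 and -1.01 to 3.07. Chek2, the kinase that Atm activates, was above background on 2 Bmi1 KO arrays, against 6 WT arrays, and differed by -1.30. Chek1, the kinase downstream of Atr, differed by 0.49.

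The break-sensing complex of Mre11a, Rad50 and Nbn binds broken ends and brings Atm to them. All 4 of its probes were tested, and 3 of them entered the test through WT arrays only. Mre11a, its nuclease, was above background on 3 Bmi1 KO arrays, against 7 WT arrays. Its levels ran from -4.34 to 1.73 on Bmi1 KO arrays, against -2.42 to -0.26 on WT arrays. The Bmi1 KO arrays lay on both sides of the WT range, 4 below and 1 above, and the difference was -0.81 (SE 0.86, adjusted p = 0.65 by limma). Of those below, only set 1 replicate 3, at -3.01, was above background. The difference was -0.49 for Nbn, which carries the complex into the nucleus, and -0.92 and 0.39 for the 2 probes of Rad50, its bridging subunit. None of these passed the test.

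For chromatin signalling at breaks 6 probes were tested and 0 passed. Trp53bp1, the scaffold protein that steers breaks toward end joining, had the most negative difference of the members. That probe had levels from -5.32 to 0.57 with a median of -2.90 on Bmi1 KO arrays, against -4.76 to 1.46 with a median of -0.02 on WT arrays. It was above background on 3 Bmi1 KO and 6 WT arrays. The ranges overlapped, and 1 WT array, set 2 replicate 4, stood at -4.76 while the other WT arrays were at -0.22 or above. The difference was -1.80 (SE 1.04, 95% interval -3.99 to 0.40, adjusted p = 0.407 by limma). It was -2.56 without that WT array (adjusted p = 0.347) and -0.30 without the 4 dim Bmi1 KO arrays. The other Trp53bp1 probe differed by -0.25. Mdc1, the adaptor that binds phosphorylated H2AX, had levels from -0.81 to 1.86 with a median of 0.73 on Bmi1 KO arrays, against -2.01 to 1.61 with a median of -0.29 on WT arrays. Its genotypes overlapped and its difference was 0.87 (SE 0.64, adjusted p = 0.50 by limma). The differences were 0.16 for H2afx, the histone variant itself, 1.21 for Rnf8 and 0.26 for Rnf168.

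For homologous recombination, which copies the lost sequence from the sister chromatid, 3 probes were tested and 0 passed. All 3 entered the test through WT arrays only, which favours a lower value in Bmi1 KO. Brca2, a central mediator of this pathway, was above background on 3 Bmi1 KO arrays, against 7 WT arrays. Its levels ran from -5.29 to 2.15 with a median of -1.84 on Bmi1 KO arrays, against -2.47 to 2.05 with a median of -0.18 on WT arrays. The ranges overlapped, and the 3 brighter Bmi1 KO arrays lay between -1.84 and 2.15. Of these, 1 stood just above the highest WT array and the rest lay within the WT range. The difference was -1.41 (SE 1.05, adjusted p = 0.505 by limma), and 0.69 without the dim arrays. Xrcc3 and Xrcc2, which act in the same pathway, differed by -1.23 and -0.46. Brca1, which acts earlier in the pathway, was above background on 1 Bmi1 KO and 2 WT arrays, too few for the test. The second Xrcc2 probe was above background on 1 Bmi1 KO and 3 WT arrays.

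Non-homologous end joining reseals broken ends with the Ku proteins Xrcc5 and Xrcc6, the kinase subunit Prkdc and the ligase Lig4 with its partner Xrcc4. Of its probes 4 were tested and 0 passed. Lig4 was above background on 3 Bmi1 KO and 7 WT arrays, and its levels ran from -4.53 to 2.33 with a median of -1.41 on Bmi1 KO arrays, against -0.89 to 2.13 with a median of -0.58 on WT arrays. The lowest 4 Bmi1 KO arrays stood below every WT array, and on these the probe was not above background. On the 3 Bmi1 KO arrays where it was, the levels were 0.15, 2.33 and 0.90. The difference was -1.24 (SE 1.0, adjusted p = 0.538 by limma). Prkdc ran from -6.41 to 4.54 with a median of 1.35 on Bmi1 KO arrays, against -0.20 to 1.97 with a median of 1.16 on WT arrays, so the Bmi1 KO arrays extended beyond the WT range on both sides. The difference was -1.17 (SE 1.29, adjusted p = 0.664 by limma). Xrcc5 differed by 0.83 and Xrcc6 by -0.25. Xrcc4 was too dim for the test. It was above background on 3 Bmi1 KO arrays, none of them dim, and on 1 WT array.

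The 10 spots of the Atm and Prkdc probes give the noise of a spot. Spots of the same array had a median SD of 0.06 for Atm and 0.08 for Prkdc, with the largest at 0.35 and 0.12. Between arrays the SD was 2.27 in Bmi1 KO and 0.79 in WT for Atm, and 3.68 in Bmi1 KO and 0.86 in WT for Prkdc. The lowest Prkdc level, -6.41, came from Bmi1 KO set 1 replicate 2, an array with 56.6% of probes above background, and its spots there had an SD of 0.09. The probe was not above background on that array, so -6.41 is a background level, as are the lowest 2 Atm levels and the Prkdc levels of -3.09 and -1.62 on dim arrays.

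Base excision and single-strand break repair held the largest positive difference of the members, and 0 of its 8 probes passed the test. Xrcc1, the scaffold that assembles single-strand break repair, had levels of 2.39, 2.25 and 4.64 in Bmi1 KO set 1 and of 5.70, 6.18, 6.75 and 0.41 in Bmi1 KO set 2. On WT arrays the levels were 2.83, 0.08 and 0.75 in set 1 and 0.92, -2.89, -3.45 and -0.60 in set 2. The 4 Bmi1 KO arrays above every WT array were the 4 dim ones, at 4.64 to 6.75, while the other 3 lay at 0.41 to 2.39, inside the WT range. The difference was 4.38 (SE 1.13, 95% interval 1.98 to 6.78), or 4.06 relative to all probes, with an unadjusted p of 0.0013 and an adjusted p of 0.21 by limma. Exact permutation of genotype within sets gave p = 0.00857 for this probe alone (two-sided, unadjusted). Without the 4 dim Bmi1 KO arrays the difference was 1.42 with an adjusted p of 0.95.

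The glycosylase Ung had levels from 9.58 to 13.93 with a median of 10.70 on Bmi1 KO arrays, against 9.82 to 10.75 with a median of 10.21 on WT arrays. The 3 Bmi1 KO arrays above the WT range, at 12.65, 12.70 and 13.93, were the dim arrays of set 2. The difference was 1.11 (SE 0.60, 95% interval -0.15 to 2.38, adjusted p = 0.387 by limma). Parp1, the enzyme that marks strand breaks with poly-ADP-ribose, ran from 3.62 to 8.17 with a median of 4.76 on Bmi1 KO arrays, against 3.41 to 5.55 with a median of 4.27 on WT arrays. Again 3 dim Bmi1 KO arrays lay above the WT range, and the difference was 1.24 (SE 0.75, adjusted p = 0.421 by limma). Without the dim arrays it was -0.14, and with the arrays scaled by the probes detected on each of the 14 the differences of Parp1 and Ung were -0.12 and -0.24. Lig1, the replicative ligase, ran from -0.81 to 5.93 with a median of 0.23 on Bmi1 KO arrays, against -0.79 to 2.34 with a median of -0.33 on WT arrays, and differed by 1.27 (SE 0.95, adjusted p = 0.505 by limma). Apex1, the endonuclease that cuts at abasic sites, differed by 1.08.

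The other members of this pathway had negative differences. Lig3, the ligase partner of Xrcc1, had levels from -2.17 to 3.02 with a median of 0.06 on Bmi1 KO arrays, against 0.42 to 2.52 with a median of 1.29 on WT arrays, at the brighter of its 2 probes. On that probe 5 Bmi1 KO arrays lay below every WT array and 1 above. The difference was -1.27 (SE 0.74, 95% interval -2.84 to 0.30, adjusted p = 0.412 by limma), and the other probe differed by -0.46. Parp2 ran from -3.41 to 2.93 with a median of 1.75 on Bmi1 KO arrays, against 0.94 to 3.25 with a median of 2.05 on WT arrays. Of the Bmi1 KO arrays 2 lay below the WT range, and the difference was -1.40 (SE 0.86, adjusted p = 0.429 by limma).

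Mismatch repair, which corrects replication errors, was covered by 3 probes, and 0 passed the test. Msh6, the subunit that recognises mispaired bases, differed by 0.68, and the 2 probes of Pms2, part of the complex that incises the new strand, differed by 0.13 and 0.11. In nucleotide excision repair, which removes bulky lesions, 4 probes were tested and 0 passed. Xpa, the damage-verifying protein of that pathway, had levels from 3.69 to 10.33 with a median of 5.0 on Bmi1 KO arrays at its first probe, against 3.20 to 4.19 with a median of 3.69 on WT arrays. The levels on 5 Bmi1 KO arrays exceeded those on every WT array, and the highest 4 were the dim arrays at 5.0 to 10.33. The difference was 2.35 (SE 0.91, 95% interval 0.43 to 4.28), or 2.03 relative to all probes, with an unadjusted p of 0.0193 and an adjusted p of 0.338 by limma.

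The other Xpa probe had levels from 2.76 to 9.03 with a median of 4.89 on Bmi1 KO arrays, against 3.56 to 5.52 with a median of 4.16 on WT arrays. Its genotypes overlapped on both sides, and it differed by 1.33 (SE 0.87, adjusted p = 0.45 by limma). Without the dim arrays the difference of the first Xpa probe was 0.28. Xpc, which recognises distorted DNA, differed by 0.78 and Ercc1, a subunit of the nuclease that cuts beside the lesion, by -0.80. In the Fanconi anaemia pathway, which unhooks crosslinked strands, 1 probe of Fanca, a core complex subunit, was tested and differed by -1.05. The other Fanca probe was above background on 0 Bmi1 KO arrays and 2 WT arrays. The pathway's central effector, Fancd2, was above background on 2 Bmi1 KO arrays and 1 WT array, too few for the test. For Brca1, Xrcc4 and Fancd2, exact permutation within sets (two-sided) gave p = 0.631, 0.07 and 0.11. Most values compared are background levels, which are higher on the dim arrays of set 2, so no size of difference is given.

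**Figure D4:**
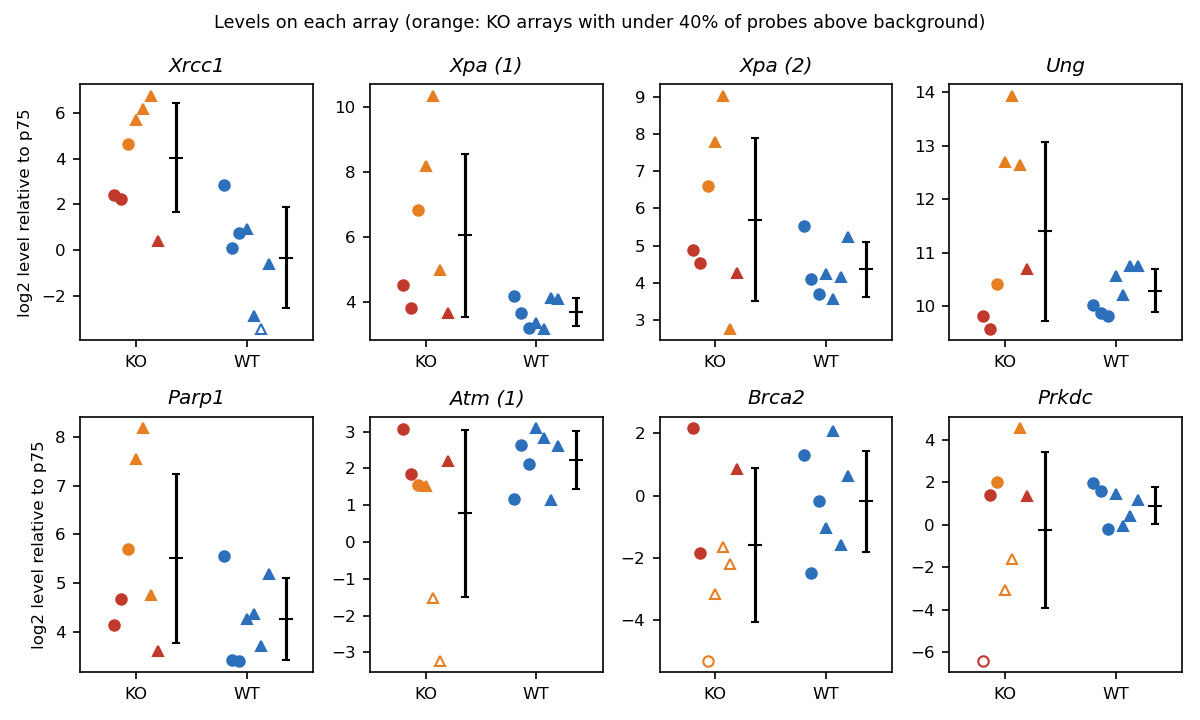
Levels of 8 member probes on each array, as log2 relative to the 75th percentile of the array, for Bmi1 KO on the left and WT on the right of each panel. Circles are set 1, triangles set 2, orange the 4 dim Bmi1 KO arrays, open symbols not above background, and bars the mean ± SD (n = 7). For Xrcc1 the dim arrays lie at 4.64 to 6.75, above every WT array.

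Brightness of a probe went with its difference over the whole array. With the 29679 probes ranked by mean level into 10 bins, the median difference was 1.20 in the top bin, 0.69 in the next and -0.13 to 0.29 in the other 8. In the top bin 27.4% of probes had an unadjusted p under 0.05 and were higher in Bmi1 KO. Both Xpa probes and those of Parp1 and Ung were in that bin. Xrcc1 was in a bin whose median difference was 0.27. The 4 dim Bmi1 KO arrays held the highest 4 values of all 14 arrays for 2 of the 39 members (5.13%), Xrcc1 and the first Xpa probe, and for 6.87% of all probes.

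The members varied more among Bmi1 KO arrays than among WT arrays. Their median SD was 2.37 in Bmi1 KO and 1.11 in WT, and the Bmi1 KO value was the larger for 37 of 39 probes (94.9%). Over all probes the median SD was 1.89 in Bmi1 KO and 1.10 in WT, and the Bmi1 KO value was the larger for 84.8%. Levels not above background enter these SDs, and such levels differ between arrays. For Prkdc they were -6.41, -3.09 and -1.62 on Bmi1 KO arrays. Their part in the SDs was not tested. The median of the members on an array, relative to the same array's median of all probes, ran from -2.56 to 2.77 on Bmi1 KO arrays and from -0.04 to 1.29 on WT arrays.

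Each of the 9 genes with 2 probes gives a check of one probe by the other. Both probes differed in the same direction for 7 genes and in opposite directions for Atr and Rad50, none of which passed the test. The 7 include Xrcc2 and Fanca, each with 1 probe too dim for the test, and Pms2, with differences of 0.13 and 0.11. No share over all genes with 2 probes is given. Over 63 combinations of gene and array in each genotype, only 1 of the pair was above background in 19 for Bmi1 KO and in 15 for WT. Both Xpa probes and their sequences, from sites apart on the same chromosome, were above background on all 14 arrays.

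Within the sets of experiments no member passed the test either. Within set 1 the adjusted test called 7 probes (0.0236%) and within set 2 it called 4 (0.0135%), none of them members, with smallest adjusted p-values of 0.489 and 0.328 for members (limma). At an unadjusted p under 0.05 the first Atr probe (-2.81) and Fanca (-3.45) were lower in Bmi1 KO within set 1, where 7.8% of all probes had such a p. Both were above background on 0 of the 3 Bmi1 KO arrays of that set, so these differences are against background levels. Within set 2, where 13.2% had it, Xrcc1 (6.26), the first Xpa probe (3.10) and Ung (1.92) were higher and the first Atm probe (-2.67) was lower. The median over all probes was -0.04 within set 1 and 0.71 within set 2. Of the 39 members 24 had the same sign in both sets. The test of the difference between sets called 0 probes, with 5.37% at an unadjusted p under 0.05. Among members Fanca alone had such a p (unadjusted p = 0.0272, adjusted p = 0.876 by limma). It was above background on 1 of 7 Bmi1 KO arrays and 5 of 7 WT arrays, so most Bmi1 KO values compared there are background levels. Xrcc1 differed by 1.87 (SE 1.58) within set 1. Leaving out Bmi1 KO set 2 replicate 4, which leaves only dim Bmi1 KO arrays in set 2, its difference within set 2 was 7.71 (SE 1.11, adjusted p = 0.0145).

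Other damage and repair genes gave a wider view of these pathways. Of 124 such genes on the array 101 had a probe in the test, and 0 of their 134 probes passed it, with a smallest adjusted p of 0.24. At an unadjusted p under 0.05, 8 were higher and 9 lower in Bmi1 KO. By smallest p the highest were Ercc6, which couples repair to transcription (3.41, SE 0.98), the single-strand break enzyme Tdp1 (1.40), the TFIIH subunit Gtf2h1 (2.03) and the sliding clamp Pcna (1.53). These probes of Tdp1, Gtf2h1 and Pcna were above background on all 14 arrays, and 6 Bmi1 KO arrays exceeded every WT array for Tdp1 and for Pcna. Another Tdp1 probe differed by 0.83 (SE 1.31) and was above background on 3 Bmi1 KO and 4 WT arrays. Differences without the 4 dim Bmi1 KO arrays are not given for these genes. Among the lowest were the TFIIH helicase Ercc3 (-2.53) and the glycosylase Mbd4 (-2.69). Ercc3 was above background on 3 Bmi1 KO arrays and Mbd4 on 2, against 7 WT arrays for each. Adjusted p-values of these 6 genes ran from 0.24 to 0.349 by limma, and that of the other Tdp1 probe was 0.774.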

How the data were processed

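RNA came from a column kit for small inputs, and Cy3 labelling followed a company protocol that is not disclosed, per the labels. Spot intensity, and marks scored 0 or 1 for signal above background, saturation and outliers, came from Agilent Feature Extraction 10.7.3.1, per the file headers. Of 62976 spots per array 59305 were not controls. The number of arrays limits precision. The authors' deposited log2 table (median 3.952 per column, r at least 0.9993 with quantile-normalized log2 intensities) served as an alternative; the sources used here do not name its tool. The set was read from the numbering style of the titles. Set 1 was on a single slide, and set 2 was spread over 2.

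Here log2 intensity minus the array's 75th percentile was used, without outlier spots and with spots of a probe averaged. There were 0 saturated spots. Probes well above background on at least 4 of 7 arrays of either genotype were tested with limma 3.58.1 (R 4.3.3, data.table version 1.17.8), genotype plus set, two-sided; within-set differences came from a model with 4 means. Single probes were tested by exact permutation within sets (1400 arrangements). Figures used matplotlib 3.10.9 in Python 3.11.15. Code was tested on simulated data. Alternatives changed scaling, normalization, background correction, filter, probe choice, set, slide, pairing, weights and arrays. The members, lists and tests were chosen with earlier results of these data known. Values were given per genotype for members with the 6 smallest p in either direction, and up to 4 other genes were named per direction, apart from some not reported here.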

Additional observations from a re-analysis of the deposited data

Results flagged for a closer look

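In 90 groups of 7 levels, each a damage or repair probe on the arrays of one genotype or a measure of the arrays, 8 had 1 array far from the other 6 by Dixon's criterion, where chance gives about 4.5. Of these arrays 1 was Bmi1 KO. Apex1 stood at -3.38 on Bmi1 KO set 2 replicate 3, a dim array, against 1.0 to 3.80 on the other Bmi1 KO arrays. The other 7 were WT arrays. On WT set 2 replicate 4 the first Trp53bp1 probe stood at -4.76, against -0.22 to 1.46 on the others. On WT set 2 replicate 2 Xrcc6 stood at -2.82, against -1.30 to -0.41, and Fancd2 at -0.29, against -6.11 to -4.30. WT set 2 replicate 3 had Lig1 at 2.34, against -0.79 to 0.30, and its 2 Fanca probes went opposite ways, at 0.60 against -5.50 to -3.12 and at -4.89 against -2.53 to -1.52. The second Pms2 probe stood at 1.67 on WT set 1 replicate 2, against -0.57 to -0.06. The cause was not tested.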

How the results depend on the processing

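Under 13 other settings and with each of the 14 arrays left out in turn, 0 members and 0 other damage and repair probes passed an adjusted p under 0.05 over all arrays (limma), and the members' median relative to all probes ranged from -0.70 to 0.05 (from -0.74 to -0.25 with 1 array left out). The other list's median ranged from -0.28 to 0.01 (from -0.37 to 0.08 with 1 array left out). The number of probes called over the whole array, 9, was 134 with scaling by the probes detected on every array, 26 with quantile normalization, 34 with normexp, 26 with the deposited values, 21 with the strict filter, 5 with 1 probe per gene, 14 with slide as a random block, 37 with array weights and 5 without the 4 dim Bmi1 KO arrays. With 1 array left out it ran from 5 to 65, with 65 without Bmi1 KO set 1 replicate 3, 37 without Bmi1 KO set 2 replicate 4, and 5 without Bmi1 KO set 1 replicate 2 or 4, WT set 1 replicate 3 or 4, or WT set 2 replicate 1, 2 or 3. Within set 1 the 7 calls ran from 4 to 208 (208 without Bmi1 KO set 1 replicate 3, 13 without Bmi1 KO set 2 replicate 4). Within set 2 the 4 calls were 14 with that scaling, 15 with quantile normalization and 11 with normexp, and ran from 2 to 285 with 1 array left out (285 without Bmi1 KO set 2 replicate 4). Members called within set 2 ran from 0 to 1, the 1 being Xrcc1 without that array. The cause was not tested. Where an array is left out of a set, fewer samples enter it.

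Xrcc1 had a positive difference under every setting run, with adjusted p-values from 0.0909 to 0.95. Relative to all probes it was 2.60 with normexp and 1.54 without the 4 dim arrays. Members with differences near that of all probes changed side. In 526 values of members under those settings 50 changed sign relative to all probes, and in 546 with 1 array left out 34 did. The relative difference of Pms2 was 0.03 with quantile normalization, 0.04 with deposited values and 0.36 with slide as a fixed block. Xpc was at -0.06 and -0.04, Msh6 at -0.07 and -0.05, and H2afx at 0.14 and 0.13 with quantile normalization and deposited values. Normexp gave Parp1 -0.09, Rnf168 0.19, Ung -0.03 and H2afx 0.19. Without a filter Rad50 was at -0.31, Msh6 at -0.03 and Chek1 at -0.22. Rad50 was at -0.05 with the strict filter and -0.07 with 1 probe per gene. Slide as a fixed block gave H2afx 0.70 and Chek1 -0.25, and as a random block Rnf168 0.16. Array weights gave Xrcc2 0.78, Pms2 0.66 and 0.60, Xpc -0.11, H2afx 0.31, Xrcc6 0.05 and Chek1 -0.27. Without the 4 dim arrays Atm was at 0.31 and 0.26, Xrcc2 at 0.06, Parp1 at -0.02, Rnf168 at 0.01, Parp2 at 0.17, Pms2 at 0.42 and 0.13, Brca2 at 0.81, Xpc at -0.78 and Xrcc6 at 0.05. On slide 2 alone, which held 4 Bmi1 KO and 2 WT arrays and was chosen after seeing the data, Atr was at 1.05 and -1.64, Ercc1 at 1.03, Rnf8 at -0.65, Rad50 at -1.27, Lig1 at -0.48, Mdc1 at -0.91, Apex1 at -0.95, Fanca at 0.46, Msh6 at -0.47 and Chek1 at -1.11.

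With 1 array left out, the ranges that crossed 0 were -0.18 to 0.38 for Chek1, -0.93 to 0.25 for H2afx, -0.34 to 1.34 for Msh6, -0.62 to 0.30 and -0.69 to 0.32 for the Pms2 probes, -0.23 to 0.62 for Rad50, -0.70 to 0.67 for Rnf168, -1.05 to 0.16 for the second Trp53bp1 probe and -0.40 to 1.30 for Xpc. Same-numbered samples of both genotypes correlated between -0.22 and 0.19 in their deviations, so the numbers were not taken to pair samples. With the replicate block 8 probes and 0 members were called, and Xrcc1 differed by 4.38 (adjusted p = 0.257 by limma). Signal over background limits what can be said of Brca1, Xrcc4 and Fancd2, which were too dim for the test.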
